A study of Homo sapiens with 12 samples.

Results

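Zinc finger rows named ZNF and a number were examined in 12 RNA libraries of engineered Huh-7.5 cells. Huh-7.5 is an established line from a human hepatocellular carcinoma. Rows were taken when the name was ZNF followed by a number, with or without a last letter, and when their counts summed to at least 600 over the 12 libraries. Of 61255 rows of the count table, 557 had such a name and 39 reached 600 counts. All 39 passed the filter on low counts (a minimum of 10 counts scaled to library size in the smaller of the groups, and 15 in all), against 128 of the 557. The rows were chosen by a rule on their summed counts, so levels are given as a description. The rule compares neither treatments nor lines, but its sum takes in all of them. A row near the limit can therefore reach it through the group in which it is high. All lines expressed the peroxidase APEX2, an enzyme used for labelling molecules close to it. It was joined to NES (the usual abbreviation of a nuclear export signal) in the APEX-NES line, to NLS (a nuclear localization signal) in the APEX-NLS line, and to G3BP1, a stress granule protein, in the APEX-G3BP1 line. The groups of each line were a mock treatment and 45 minutes of 0.5 mM sodium arsenite, with 2 libraries per group. ZNF692, with 704 counts in all, held 14 to 49 counts per mock library and 72 to 99 per arsenite library. It thus reached the limit mainly through its arsenite libraries, and ZNF546 and ZNF483, which also rose, lay near the limit. The rises of such rows are not independent of the rule, nor are line differences of rows near the limit, such as ZNF771. The RNA came from whole cells and was depleted of ribosomal RNA. A line without APEX2 is not part of the samples analysed here, and the labels do not say how many clones made up a line. The labels also do not say that replicates came from separate cultures, so p-values measure the spread between libraries, which may be technical.

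Genes of the C2H2 zinc finger family encode proteins that bind DNA through tandem arrays of zinc fingers. Many carry a KRAB domain, which recruits TRIM28 (KAP1) and through it the histone methyltransferase SETDB1 and the HP1 proteins, and they are best known for silencing transposable elements. The genes arose by repeated duplication and lie in clusters, the largest of them on chromosome 19. Arsenite causes oxidative stress, halts translation, makes stress granules form and activates the transcription factors NRF2 and HSF1.

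The libraries held 1090308 to 1461067 counts, so a library could show a level of 3 counts or more, and this limit covers counting error only. The 39 rows held 5505 to 7677 counts per library and no fewer than 14 counts in any library. All replicate pairs differed beyond counting noise and no library was left out. Of 11 hepatocyte markers none was at 0 throughout, although TTR had at most 1 count and ALB 11 to 29, and the list summed to 197 to 339 counts in mock and 264 to 431 in arsenite libraries. Fibroblast markers summed to at most 3 counts, LUM among them at 0, and endothelial markers to at most 14, VWF at 0. Blood markers summed to 15 to 32 counts, of which CD68 gave 12 to 30, with HBB at 0. The part of these markers in the results was not tested. The library kit keeps the strand of the RNA, but how strand was handled in the counting is not given in the sources used here. A ZNF name therefore denotes a row, and reads of the named gene and reads of the opposite strand cannot be told apart. Which strand the counts reflect was not tested. The domains, promoters and functions given below for a named gene are background on that gene. A change of a row need not be a change of the named gene's RNA.

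The promoters of the rows with the strongest changes are shown to place them: ZNF154 and ZNF671, neighbours on chromosome 19 that had the largest falls after arsenite, and ZNF692 and ZNF687, which had the largest rises. Each sequence holds up to 200 bases before the RefSeq start (GRCh38.p14), 5′ to 3′ on the gene's strand, and CG dinucleotides are in capitals. The ZNF692 sequence is shortened to 141 bases, since the rest lies in an exon of GENCODE release 29.
ZNF154 (chr19:57709205-57709404, minus strand): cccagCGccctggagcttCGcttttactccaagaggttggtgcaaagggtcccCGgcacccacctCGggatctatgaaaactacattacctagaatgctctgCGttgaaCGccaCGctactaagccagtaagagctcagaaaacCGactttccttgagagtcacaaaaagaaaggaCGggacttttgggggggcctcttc
ZNF671 (chr19:57727625-57727824, minus strand): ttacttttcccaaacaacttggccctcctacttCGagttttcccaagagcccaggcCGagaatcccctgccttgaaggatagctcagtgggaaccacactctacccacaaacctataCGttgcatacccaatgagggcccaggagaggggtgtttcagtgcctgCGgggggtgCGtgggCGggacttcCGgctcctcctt
ZNF692 (chr1:248859145-248859285, minus strand): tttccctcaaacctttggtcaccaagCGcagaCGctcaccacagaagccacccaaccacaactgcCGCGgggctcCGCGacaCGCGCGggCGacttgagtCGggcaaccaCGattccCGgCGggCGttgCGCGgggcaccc
ZNF687 (chr1:151281322-151281521, plus strand): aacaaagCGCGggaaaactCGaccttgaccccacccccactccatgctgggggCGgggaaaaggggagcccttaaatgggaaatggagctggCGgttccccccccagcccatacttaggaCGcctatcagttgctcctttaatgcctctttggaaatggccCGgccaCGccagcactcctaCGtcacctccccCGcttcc
The printed stretches hold 9, 7, 17 and 10 CG dinucleotides in that order. A promoter of 300 bases, 250 of them before the start, was found in the RefSeq table for 30 of the 39 rows. These held a median of 22 CG dinucleotides (range 9 to 44), against 14 over 27305 promoters of the same length. The letters TGACNNNGC, the core of the element bound by NRF2, were found on either strand in 5 of the 30 promoters (16.7%) and in 13.6% of all promoters. The letters GAANNTTC, the core of the heat shock element bound by HSF1, were found in 2 of the 30 (6.67%) and in 6.87% of all. A CG can lie within or across either motif. A match is a description and not a binding site.

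A few rows held most of the counts. The 39 rows held 77495 of the 103315 counts of all 557 ZNF-numbered rows (75%), of which 67 had no count and 266 had fewer than 10, with a median of 11 counts. ZNF814, a KRAB zinc finger gene, had 16120 counts and so 20.8% of the counts of the 39. With ZNF276 (5369 counts), ZNF154 (4741), ZNF394 (3859), ZNF354C (3621) and ZNF710 (2890), the top 6 held 47.2%. Per kilobase of exon, levels ran from 3.48 CPM (counts scaled to a common library size, with TMM scaling) in ZNF562 to 85.2 CPM in ZNF814, with a median of 16.2. Just inside the limit of 600 counts lay ZNF483 with 608 counts, ZNF717 with 614 and ZNF771 with 638, and just outside it lay ZNF789 with 561, ZNF542P with 550 and ZNF785 with 548. By chromosome, 21 of the 39 lay on chromosome 19, 3 each on chromosomes 3 and 16, and at most 2 on any other.

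The first comparison asked how arsenite changed these rows on average over the 3 lines. More of them fell than rose. Of 39 rows, 25 (64.1%) passed an adjusted p threshold of 0.05 in edgeR's quasi-likelihood test, 17 lower and 8 higher after arsenite. Over all 13108 rows tested, 38% were called, 19.4% higher and 18.6% lower, and among the 4178 rows with 600 or more counts 48.5% were called, 26.1% higher and 22.4% lower. The median log2 fold change was -0.06 over the 39, -0.01 over all rows tested and 0.03 over rows with 600 or more counts. Changes were mostly small, since only ZNF154 and ZNF692 (5.13% of the 39) were called and moved by at least 2-fold, against 8.7% of all rows. The 39 rows made up 0.525% to 0.565% of a mock library and 0.441% to 0.471% of an arsenite library, ranges that did not overlap. These are shares of total counts without TMM scaling, and the 6 rows with most counts held 47.2% of the sum. By row, 18 of the 39 had an average log2 fold change above 0 and 21 below it. The fall of the share is thus not a fall of most rows alike. In bulk RNA of this kind, fewer cells with a transcript and less of it per cell cannot be told apart.

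**Figure D1:**
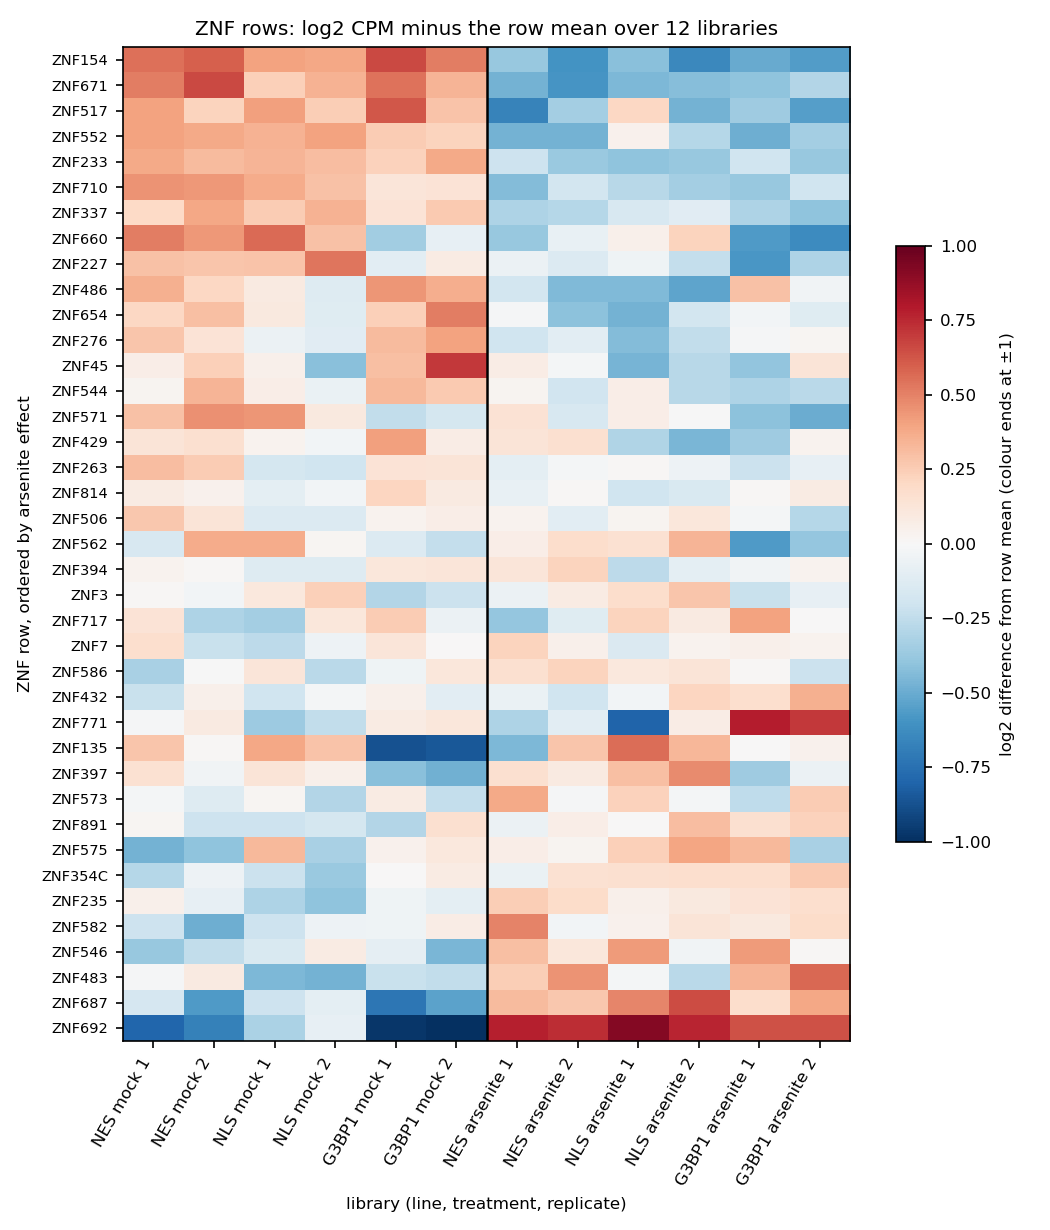
Log2 CPM of each of the 39 ZNF rows (vertical axis, ordered by arsenite effect) in the 12 libraries (horizontal axis, mock left of the black line), as the difference from the row's mean, with red above and blue below it. ZNF154 and ZNF671 at the top were high in all 6 mock libraries and low in all 6 arsenite libraries, ZNF687 and ZNF692 at the bottom the reverse, and most rows between them differed little.

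The largest fall was in ZNF154, a KRAB zinc finger gene whose promoter is often methylated in tumours. Its level was 435 and 449 CPM in NES mock, 393 and 389 CPM in NLS mock and 469 and 423 CPM in G3BP1 mock libraries. After arsenite it was 228 and 197 CPM in NES, 223 and 190 CPM in NLS and 209 and 202 CPM in G3BP1 libraries. Every arsenite library lay below every mock library, with a log2 fold change of -1.03 (SE 0.0552, edgeR's adjusted p = 2.24e-32), a level 2.04-fold lower. ZNF671, the next ZNF gene on the same strand and also a KRAB gene often methylated in tumours, lay at 168 to 224 CPM (median 191) in mock and at 94.3 to 116 CPM (median 105) in arsenite libraries. The groups again did not overlap, and the log2 fold change was -0.88 (SE 0.0721, edgeR's adjusted p = 8.39e-20).

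A further 5 rows lay lower in every arsenite library than in any mock library, so that 7 of the 39 (17.9%) did so, against 4.97% of all rows tested. Shares of rows without overlap were worked out over all rows only, many of which had fewer counts, and not for rows with 600 or more. ZNF517, a KRAB gene, fell from a median of 79.4 CPM to 46.9 CPM (log2 fold change -0.71, SE 0.11), although its highest arsenite library, at 72.01 CPM in the NLS line, lay just under its lowest mock library at 72.8 CPM. The KRAB genes ZNF552 (111 to 126 CPM in mock, 67.7 to 97.8 CPM in arsenite) and ZNF233 (152 to 168 CPM in mock, 97.8 to 112 CPM in arsenite) fell by 0.66 and 0.65 on the log2 scale. ZNF710, a zinc finger gene without a KRAB domain, went from 204 to 255 CPM in mock to 138 to 165 CPM in arsenite libraries, and the KRAB gene ZNF337 from 141 to 168 CPM to 97.5 to 119 CPM. Their log2 fold changes were -0.61 and -0.52. The edgeR's adjusted p of these 5 lay between 5.11e-14 (ZNF710) and 6.58e-08 (ZNF517).

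The other 10 falls were smaller, with groups that overlapped. ZNF660 had a log2 fold change of -0.46 (SE 0.103), with 51.9 to 97.8 CPM in mock and 42.8 to 76.9 CPM in arsenite libraries. ZNF227 and ZNF486, both KRAB genes, had log2 fold changes of -0.46 and -0.44, and ZNF486 went from a median of 191 CPM to 127 CPM. ZNF654, ZNF276, ZNF45, ZNF544, ZNF571, ZNF429 and ZNF814 completed the falls, with log2 fold changes from -0.40 in ZNF654 to -0.10 in ZNF814. ZNF814, the row with most counts, moved only from a median of 1119 CPM to 1047 CPM (SE 0.0403, edgeR's adjusted p = 0.0311).

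Among the 8 rises ZNF692 stood first. ZNF692 encodes a C2H2 zinc finger protein without a KRAB domain. Its level was 22.8 and 24.8 CPM in NES mock, 31.8 and 37.4 CPM in NLS mock and 20.2 and 12.9 CPM in G3BP1 mock libraries. After arsenite it was 68.0 and 66.1 CPM in NES, 75.04 and 67.2 CPM in NLS and 61.7 and 61.8 CPM in G3BP1 libraries. All arsenite libraries lay above all mock libraries, with a log2 fold change of 1.41 (SE 0.132, edgeR's adjusted p = 1.55e-16), a 2.65-fold rise. The groups also did not overlap in ZNF687, which encodes a partner of ZMYND8 in a chromatin complex. ZNF687 lay at 49.97 to 77.1 CPM (median 64.2) in mock and at 93.4 to 130 CPM (median 105) in arsenite libraries, a log2 fold change of 0.75 (SE 0.0913, edgeR's adjusted p = 1.97e-11). These 2 of 39 (5.13%) compare with 6.44% of all rows that lay higher in every arsenite library.

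The other 6 rises had overlapping groups. They were ZNF483 (log2 fold change 0.44), which has both a SCAN and a KRAB domain, and the KRAB genes ZNF546 (0.41), ZNF582 (0.32), ZNF235 (0.29), ZNF354C (0.28) and ZNF891 (0.23). In ZNF235 the overlap was slight, with 88.6 to 122 CPM in mock and 121 to 139 CPM in arsenite libraries. ZNF354C, the largest of these by counts, went from a median of 218 CPM to 267 CPM (SE 0.0599, edgeR's adjusted p = 7.32e-05). The 14 rows that did not pass had log2 fold changes from -0.15 in ZNF263 to 0.24 in ZNF575, and ZNF394, with a log2 fold change of -0.001 (SE 0.0569), had a median of 260 CPM in mock and 255 CPM in arsenite libraries.

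Of the 25 calls, 19 held under all 21 alternatives and those of ZNF429, ZNF45, ZNF571, ZNF582, ZNF814 and ZNF891 did not. Leaving out 1 library ended the call of ZNF582 without NES mock replicate 2 or NES arsenite replicate 1 (edgeR's adjusted p 0.0595 to 0.154), and that of ZNF891 without NLS mock replicate 1, NLS arsenite replicate 2 or G3BP1 mock replicate 1 (0.0558 to 0.107). It ended that of ZNF571 without replicate 2 of NES mock, NES arsenite or NLS arsenite or replicate 1 of NLS mock (0.0544 to 0.0959), and that of ZNF429 without either NLS arsenite library or replicate 1 of NLS mock, G3BP1 mock or G3BP1 arsenite (0.0601 to 0.127). For ZNF45 the libraries were replicate 2 of NES mock, NES arsenite and G3BP1 mock and replicate 1 of NLS mock, NLS arsenite and G3BP1 arsenite (0.052 to 0.241). For ZNF814 they were both NES mock and both NLS arsenite libraries, replicate 1 of NES arsenite and G3BP1 mock and replicate 2 of NLS mock (0.0531 to 0.105).

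**Figure D2:**
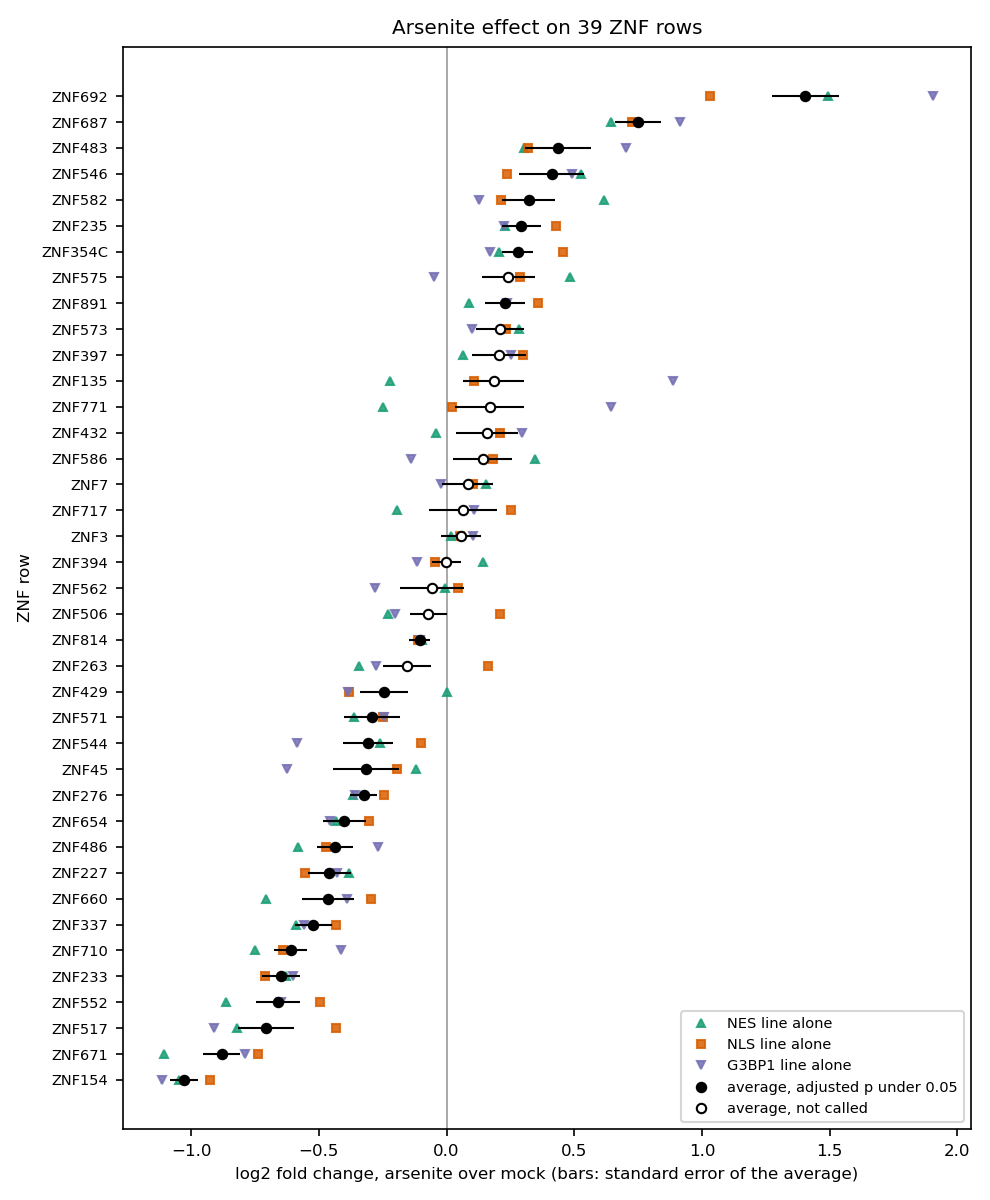
Log2 fold change of arsenite over mock (horizontal axis) for the 39 ZNF rows (vertical axis), as the average over lines (circles, filled where the adjusted p is under 0.05, bars of 1 standard error) and in each line alone (triangles and squares). The average runs from -1.03 in ZNF154 to 1.41 in ZNF692, and ZNF135 and ZNF771 have the G3BP1 line far from the others.

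Taken line by line, arsenite changed 16 of the 39 rows in the NES line, 4 higher and 12 lower, where 20.3% of all rows were called (10.9% higher, 9.41% lower). In the NLS line 14 changed, 5 higher and 9 lower (17.8% of all rows, 9.67% higher and 8.14% lower), and in the G3BP1 line 17, 5 higher and 12 lower (16.4% of all rows, 9.22% higher and 7.15% lower). The 3 lines share no library. A call in all 3 lines was made for 10 rows (25.6%, against 7.06% of all rows), namely ZNF154, ZNF671, ZNF552, ZNF233, ZNF710, ZNF337, ZNF227, ZNF276, ZNF687 and ZNF692. A call in at least 1 line was made for 24 rows (61.5%, against 32.4%). The direction was common to all 3 lines in 27 rows (69.2%, against 58.3%). All rows tested include many with fewer counts. For the average effect 38% of all rows were called and 48.5% of rows with 600 or more counts. The shares of this paragraph were not worked out for rows with 600 or more counts, so depth may enter the difference. DESeq2 called 8 rows in the NLS line and 10 in the G3BP1 line, and without NLS mock replicate 2 edgeR called 8 in the NLS line.

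Whether the arsenite effect differed among lines was tested with the interaction terms. By edgeR's quasi-likelihood test 0 of the 39 rows passed, DESeq2 also called 0, and 24 of 13108 rows (0.183%) passed in all. At an unadjusted p under 0.05 there were 5 of the 39 rows and 1097 of all rows. The 5 were ZNF135, ZNF771, ZNF506, ZNF692 and ZNF263, named after their values were seen. ZNF135, a KRAB gene, had the smallest edgeR's adjusted p of the 39 (0.171), with log2 fold changes of -0.22 in the NES, 0.11 in the NLS and 0.88 in the G3BP1 line. Its levels were 66.3 and 55 CPM in NES mock and 40.1 and 66.1 CPM in NES arsenite libraries, and 29.8 and 30.3 CPM in G3BP1 mock and 54.9 and 56.3 CPM in G3BP1 arsenite libraries. The groups of the G3BP1 line did not overlap and those of the NES line did. Without NES arsenite replicate 2, the higher of the NES arsenite libraries, the edgeR's adjusted p was 0.0212. ZNF771 had log2 fold changes of -0.25, 0.02 and 0.65 and ZNF692 of 1.49, 1.03 and 1.90 in the same order of lines.

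The rows were then sorted by what the other strand holds. In GENCODE release 29 (GRCh38) a gene on the opposite strand lay over exonic bases of 36 of the 39 rows (92.3%), against 180 of the 518 ZNF-numbered rows below 600 counts (34.7%) and 75.3% of 12421 tested rows matched to that annotation. The 518 rows had a median of 8 counts, so their share is not at like depth. In 10 rows all exonic bases lay inside the opposite gene, in 26 a part of them and in 3 none. These are 25.6%, 66.7% and 7.69% of the 39. Of 3973 matched rows with 600 or more counts the shares were 31.3%, 56.4% and 12.3%, so such overlap is common at this depth. This division was made after the values were seen. Of the 10 rows that lay wholly inside an opposite gene, 8 were lower after arsenite and 0 higher by edgeR, with a median log2 fold change of -0.45. ZNF154, ZNF671, ZNF552, ZNF233, ZNF660, ZNF486, ZNF654 and ZNF571 fell, and ZNF394 and ZNF506 did not pass the test (the range over the 10 was -1.03 to -0.001). Of the 26 rows covered in part, 6 were higher and 8 lower (median 0.11). Of the 3 with no opposite gene, ZNF692 and ZNF546 were higher and ZNF517 lower.

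The same direction was seen over all tested rows. Of 4232 rows wholly inside an opposite gene 7.47% were higher and 30.7% lower (median log2 fold change -0.22), of 5116 covered in part 25.2% were higher and 11.4% lower, and of 3073 with none 27.7% were higher and 12.9% lower. Among rows with 600 or more counts the falls differed less, with 14.5% higher and 32% lower of the rows wholly inside (median -0.06), 31.8% higher and 15.8% lower of those covered in part and 34.7% higher and 26.3% lower of those with none. Across the 39 rows the log2 fold change had a Pearson's r of -0.681 and a Spearman's rho of -0.68 with the share of exonic bases inside an opposite gene, as a description over genes that share the same libraries and are not independent. The sharing of exonic bases with an exon of the other strand gave a different picture, with 4 higher and 11 lower of the 29 rows that shared any (median -0.001) and 4 higher and 6 lower of the 10 that did not (median -0.38). Over all tested rows 21.9% of those that shared any were higher and 14.3% lower, and 17.5% of those that did not were higher and 22.8% lower. Depth moved with the effect as well, since the fold change had a Spearman's rho of -0.421 with the summed counts of the 39 rows. The part of the overlap and of depth in the falls was not tested.

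**Figure D3:**
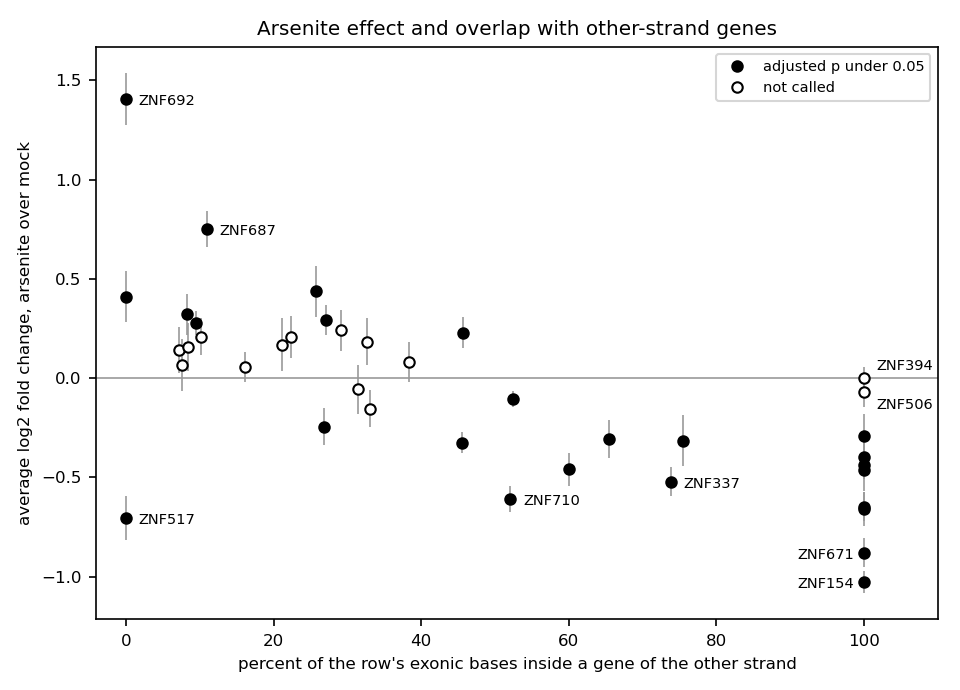
Average log2 fold change of arsenite over mock (vertical axis, bars of 1 standard error) against the percent of a row's exonic bases inside a gene of the other strand (horizontal axis) for the 39 ZNF rows, filled where the adjusted p is under 0.05. The 10 rows at 100 percent lie between -1.03 and -0.001, and the rise of ZNF692 and the fall of ZNF517 both lie at 0 percent.

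The counts of the opposite rows are given as a description. When each of the 36 rows was set beside the row of the opposite gene that covered most of its exonic bases, the opposite row had fewer counts for 29 and more for 7. ZNF154 (chr19:57697367-57709194, minus strand) lay in an intron of ZNF551, a row of 15 counts, and of AC003006.1, a row of 2 counts whose gene also contains ZNF671 (chr19:57719751-57727624, minus strand). ZNF486 (chr19:20167228-20200490, plus strand) lay in an intron of AC011447.3, whose row held 20594 counts and had a log2 fold change of 0.22, against -0.44 for ZNF486. ZNF562, with 690 counts, shared 2461 exonic bases with ZNF561-AS1, which held 8454 counts, and their log2 fold changes were -0.06 and -0.05.

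Pairs on opposite strands did not always move together. ZNF235 (chr19:44228729-44305046, minus strand) shared 970 exonic bases with ZNF227 and 170 with ZNF233, both on the plus strand. ZNF235 rose by 0.29 on the log2 scale, while ZNF227 fell by 0.46 and ZNF233 by 0.65. ZNF552 (log2 fold change -0.66) and ZNF586 (0.14, not called) shared 126 exonic bases. ZNF687 (0.75) shared 384 with PI4KB (0.64). ZNF276 (-0.32) shared 2302 with FANCA (0.14, not called), the Fanconi anaemia gene, and ZNF337 (-0.52) shared 2823 with ZNF337-AS1 (0.11, not called). ZNF771 (0.17, not called) shared 666 with DCTPP1 (2.02). ZNF692 (chr1:248850006-248859144, minus strand), which had no overlapping opposite gene, ended 489 bases from ZNF672 on the plus strand.

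The next comparison asked which rows differed between lines, over both treatments. Of the 39 rows 19 (48.7%) differed among the 3 lines by edgeR's quasi-likelihood test, against 32.8% of all rows and 53.8% of rows with 600 or more counts. Of these 19, the NLS line had the lowest mean in 9, the G3BP1 line in 9 and the NES line in 1, a split not worked out over all rows. The 3 line contrasts share libraries and are given side by side only. Between NLS and NES 6 rows differed, 1 higher and 5 lower in NLS (of all rows 10.9% were called, 4.82% higher and 6.13% lower). Between G3BP1 and NES 7 differed, 2 higher and 5 lower in G3BP1 (of all rows 19.4%, 10.4% higher and 8.99% lower). For both contrasts the share among rows with 600 or more counts was not worked out. Between G3BP1 and NLS 18 differed, 9 higher and 9 lower in G3BP1, against 30.9% of all rows (16% higher, 14.9% lower) and 49% of rows with 600 or more counts. Scaling by total counts alone, which moved the median log2 difference of all rows between G3BP1 and NLS from -0.01 to -0.14, turned this split into 3 higher and 12 lower, and that between G3BP1 and NES into 1 higher and 8 lower.

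Of the 18 rows that differed between G3BP1 and NLS, 6 were also called within mock libraries and within arsenite libraries taken alone. The share of all rows called in both was not worked out, so this count does not set the ZNF rows apart. They were ZNF276, ZNF486, ZNF814, ZNF660, ZNF397 and ZNF3. ZNF276, a zinc finger gene next to FANCA, lay at 442 and 469 CPM in G3BP1 mock and 351 and 359 CPM in G3BP1 arsenite libraries, against 341 and 327 CPM in NLS mock and 262 and 299 CPM in NLS arsenite libraries. The lines did not overlap within a treatment, and the log2 difference was 0.39 (SE 0.0636, edgeR's adjusted p = 1.93e-07). ZNF486 was higher in G3BP1 by 0.51 (SE 0.0865, edgeR's adjusted p = 5.54e-07) and ZNF814 by 0.22 (SE 0.0495, edgeR's adjusted p = 0.000185), the latter not called with total-count scaling (adjusted p = 0.132).

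Between G3BP1 and NLS, ZNF660 had the largest difference of the 6. It lay at 51.9 and 62.5 CPM in G3BP1 mock and 44.6 and 42.8 CPM in G3BP1 arsenite libraries. In the NLS line it lay at 97.8 and 80.9 CPM in mock and 68.2 and 76.9 CPM in arsenite libraries, and in the NES line at 94.3 and 89.1 CPM in mock and 50.8 and 62.6 CPM in arsenite libraries. Within each treatment the G3BP1 libraries lay below those of both other lines. The log2 difference over both treatments was -0.69 from NLS (SE 0.13, edgeR's adjusted p = 8.54e-06) and -0.54 from NES (SE 0.133, edgeR's adjusted p = 0.001), and the difference from NES was not called within arsenite libraries alone (-0.36, edgeR's adjusted p = 0.246). ZNF397, which has a SCAN domain, was lower in G3BP1 than in NLS by a log2 difference of -0.57 (SE 0.133, edgeR's adjusted p = 0.000328), and ZNF3, a KRAB gene, by -0.40 (SE 0.0952, edgeR's adjusted p = 0.00043).

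**Figure D4:**
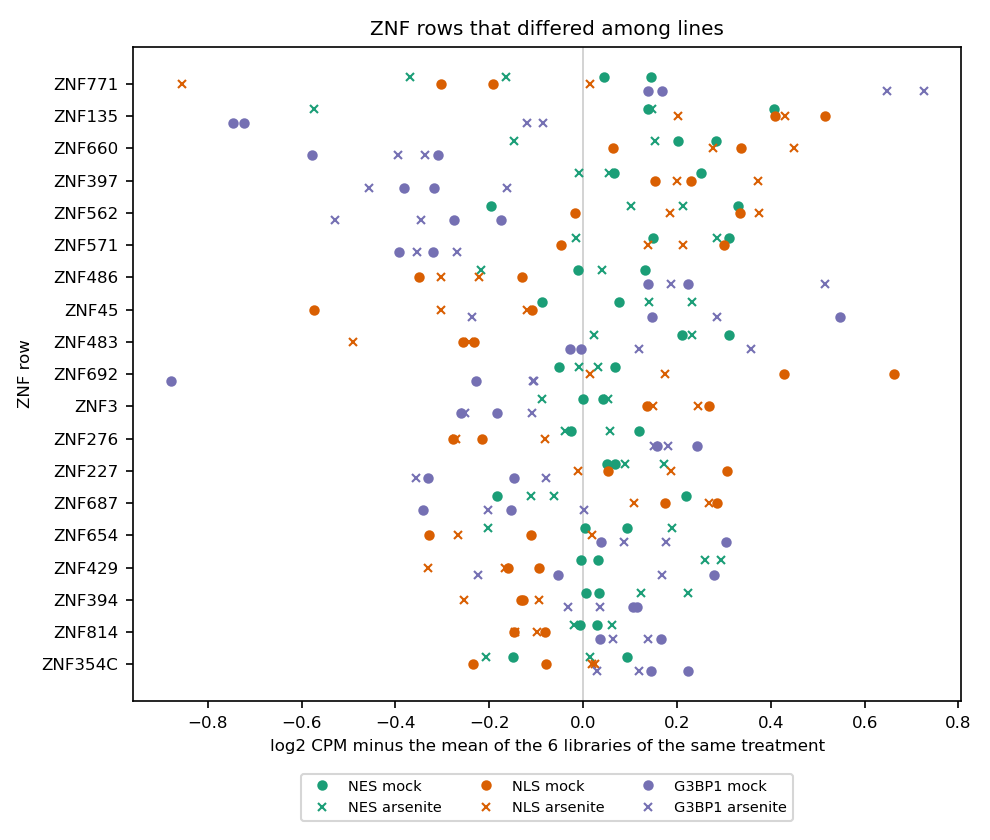
Log2 CPM of the 19 ZNF rows that differed among lines (vertical axis, ordered by the range of line means), as the difference from the mean of the 6 libraries of the same treatment (horizontal axis), with circles for mock and crosses for arsenite libraries. ZNF135 has the G3BP1 mock libraries far to the left, ZNF771 has the G3BP1 arsenite libraries far to the right, and ZNF660 has the G3BP1 line to the left under both treatments.

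The largest ranges of line means were in ZNF771 (0.76 on the log2 scale), ZNF135 (0.74), ZNF660 (0.68), ZNF397 (0.57) and ZNF562 (0.55). In ZNF771, a zinc finger gene without a KRAB domain, the arsenite libraries had 70.3 and 66.6 CPM in G3BP1, 23.5 and 43.0 CPM in NLS and 32.9 and 37.9 CPM in NES. Its log2 difference between G3BP1 and NLS was 1.02 within arsenite (edgeR's adjusted p = 3.32e-05) and 0.40 within mock libraries (edgeR's adjusted p = 0.234), and the test of a differing arsenite effect was not passed (edgeR's adjusted p = 0.386). In ZNF135 the difference was -1.20 within mock (edgeR's adjusted p = 2.89e-06) and -0.42 within arsenite (edgeR's adjusted p = 0.0895). In ZNF692 it was -1.07 within mock (edgeR's adjusted p = 0.00195) and -0.20 within arsenite (edgeR's adjusted p = 0.49). The test of a differing arsenite effect was passed by neither ZNF135 (edgeR's adjusted p = 0.171) nor ZNF692 (edgeR's adjusted p = 0.551). ZNF562, a KRAB gene, lay at 30.0 and 34.1 CPM in G3BP1 arsenite and 49.3 and 56.1 CPM in NLS arsenite libraries, a log2 difference of -0.72 (edgeR's adjusted p = 0.00955), and within mock libraries the difference was -0.39 (edgeR's adjusted p = 0.207).

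Further differences were smaller or rested on few libraries. ZNF45 was higher in G3BP1 than in NLS by 0.49 (SE 0.16, edgeR's adjusted p = 0.0125), a call lost without NLS mock replicate 2 or G3BP1 mock replicate 2 (0.102 to 0.172). ZNF571 was lower in G3BP1 than in NES by a log2 difference of -0.53 (SE 0.139, edgeR's adjusted p = 0.00235). In the NLS line, ZNF483 (-0.50), ZNF429 (-0.32), ZNF486 (-0.25), ZNF394 (-0.25) and ZNF276 (-0.24) were lower than in the NES line and ZNF575 (0.36) was higher. Of these, DESeq2 called ZNF276 alone (DESeq2 adjusted p = 0.0234). Each of the 6 lost its edgeR call when some library was left out, ZNF276 only without NES mock replicate 1 (0.0639). DESeq2 called 2 rows between G3BP1 and NES, ZNF660 and ZNF571, and 13 between G3BP1 and NLS. Without NES mock replicate 2, NLS arsenite replicate 1 or NLS arsenite replicate 2 the rows called between NLS and NES were 2, without NES mock replicate 1 or NES arsenite replicate 2 they were 3, and without G3BP1 arsenite replicate 1 those called between G3BP1 and NES were 4.

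Position was examined last. A cluster was a run of at least 4 ZNF-numbered genes in GENCODE release 29 (GRCh38) with at most 250 kb between neighbours, of which there were 24. They held 28 of the 39 rows (71.8%) and 333 of the 557 ZNF-numbered genes (59.8%), and 14 clusters held at least 1 of the 39. Of the 28 rows inside clusters 13 were lower and 4 higher after arsenite by edgeR, with a median log2 fold change of -0.09. Of the 11 outside, 4 were lower and 4 higher (median 0.06). Over all rows tested 18.6% were lower and 19.4% higher, and of rows with 600 or more counts 22.4% were lower and 26.1% higher. The part of position in the falls was not tested. With gaps of 100 kb or 500 kb the clusters held 27 or 30 rows, of which 13 were lower and 4 higher in both cases.

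The cluster at chr19:57191500-58481230 held 43 ZNF-numbered genes and 7 of the 39 rows. ZNF154, ZNF671, ZNF552, ZNF814 and ZNF544 were lower after arsenite, ZNF586 and ZNF135 did not pass, and the median log2 fold change was -0.31. ZNF154 and ZNF671 lay 10556 bases apart on the minus strand, and ZNF586, whose span on the plus strand contains ZNF552, had a log2 fold change of 0.14. The cluster at chr19:43525497-44500524 held 23 genes and 5 of the rows, with falls in ZNF45, ZNF227 and ZNF233, a rise in ZNF235 and no call in ZNF575 (median -0.32). In the cluster at chr19:19668796-24129961, with 42 genes, ZNF486 and ZNF429 fell and ZNF506 (-0.07) was not called. Neighbours included both alike and opposite changes, as in ZNF227, ZNF235 and ZNF233. Of the 15 rows of these 3 clusters, 6 lay wholly inside an opposite gene.

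**Figure D5:**
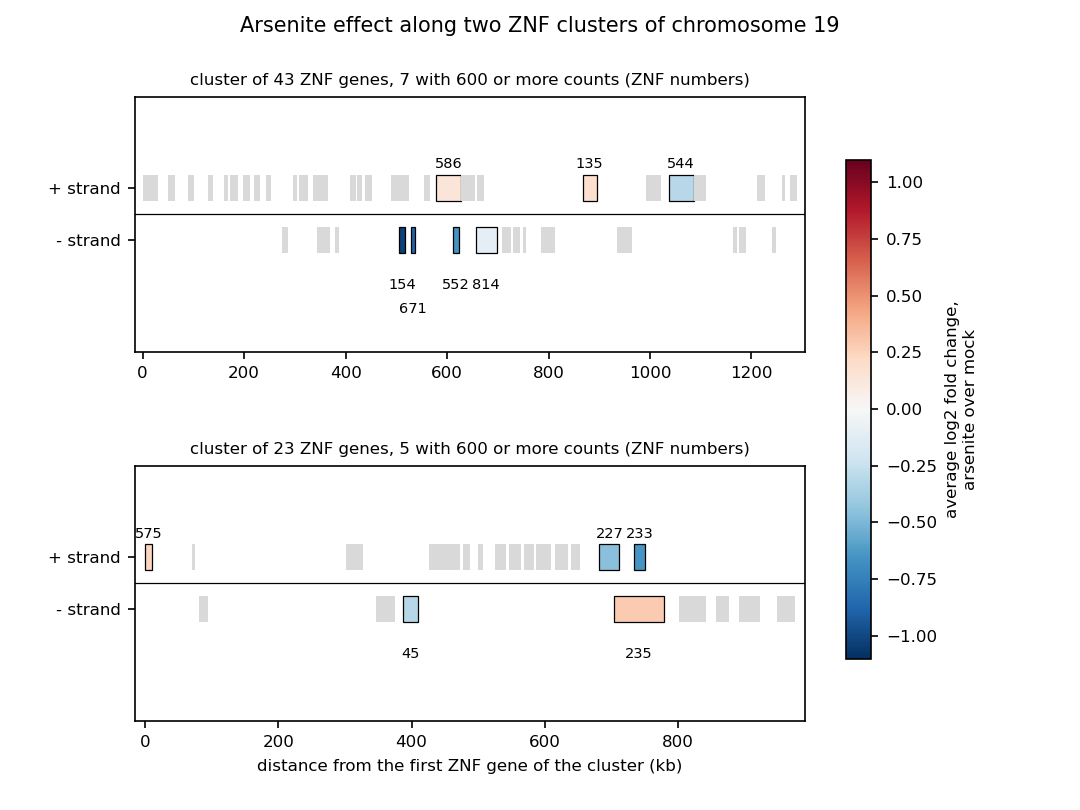
Genes of the 2 ZNF clusters with most of the 39 rows, by distance from the first ZNF gene of the cluster in kilobases (horizontal axis) and by strand (vertical axis), with the 39 rows coloured by average log2 fold change and labelled by number and other ZNF genes in grey. In the upper cluster the strongest falls lie in ZNF154 and ZNF671, and in the lower cluster ZNF235 rises while ZNF227, which overlaps it, and ZNF233, which lies inside it, fall.

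The partners of KRAB proteins were read from a list of 31 genes of the repressor machinery, of which 14 had enough counts to test. HDAC1, a histone deacetylase, rose with arsenite from 52.6 ± 6.35 CPM to 118 ± 13.3 CPM (SD, n = 6 for each treatment), by 1.16 on the log2 scale (SE 0.0928, edgeR's adjusted p = 2.13e-20). MPHOSPH8, a subunit of the HUSH silencing complex, rose by 0.31 (SE 0.111, edgeR's adjusted p = 0.0188), and 0 of the 14 were lower. The share of all tested rows was 19.4% higher and 18.6% lower, so 2 of 14 is no more than the background. TRIM28, the KRAB cofactor, had 179 counts in all and a log2 fold change of 0.43 (SE 0.227, edgeR's adjusted p = 0.13). SETDB1, with 3392 counts, had a log2 fold change of 0.11 (SE 0.0591, edgeR's adjusted p = 0.145). The median of the 14 was 0.12, against -0.01 over all rows tested.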

How the data were processed

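RNA of 12 libraries was counted per gene. The authors deposited 1 table of raw counts, which are whole numbers whose totals differ between libraries. Per the submitters' processing notes, Trim Galore, Subread, featureCounts and edgeR were used with GRCh38.p13, and versions and the strand setting are not given in the sources used here. Of its columns, 4 matched no sample and were not used. Groups came from sample titles. Counts were tested over the whole table with edgeR 4.0.16 in R 4.3.3 (TMM, filterByExpr, quasi-likelihood F test, Benjamini-Hochberg adjustment over 13108 rows, threshold 0.05). The test of the average arsenite effect alone was tried on simulated data, which held no line differences. The average arsenite effect and line contrasts used additive line and treatment terms (8 residual degrees of freedom), and line-specific effects 1 mean per group (6). DESeq2 1.42.0, other scalings, filters, thresholds, replicate blocks and left-out libraries were alternatives. The rows and gene lists were chosen with earlier results of these data known.

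Members named were the 6 with most counts, up to 10 called rises and 10 called falls after arsenite, the 5 largest ranges of line means, the 3 largest differences each way per line contrast, rows next to the count limit, and members of the 3 fullest clusters. Other names were chosen after their values were seen. Gene positions, strands and overlaps came from GENCODE release 29 and promoters from RefSeq.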

Additional observations from a re-analysis of the deposited data

How the results depend on the processing

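Counts of called rows are given in the order average arsenite effect, arsenite in NES, in NLS and in G3BP1, any line difference, NLS against NES, G3BP1 against NES and G3BP1 against NLS, and were 25, 16, 14, 17, 19, 6, 7 and 18. The DESeq2 test gave 21, 12, 8, 10, 12, 1, 2 and 13, no filter gave 21, 14, 11, 13, 13, 2, 4 and 16, and an adjusted p under 0.01 gave 19, 13, 11, 12, 12, 2, 3 and 13. With a limit of 300 counts, which took in 66 rows, they were 36, 21, 19, 23, 29, 11, 12 and 27, and with 1200 counts (21 rows) 16, 11, 13, 10, 10, 4, 2 and 9. The last 4 were 14, 2, 5 and 13 within mock and 9, 2, 2 and 9 within arsenite libraries, where fewer libraries enter each difference. Leaving out each library in turn gave 21 to 26, 12 to 16, 8 to 14, 12 to 17, 14 to 19, 2 to 7, 4 to 8 and 13 to 19. The interaction gave 0 rows throughout, except for 1 row, ZNF135, without NES arsenite replicate 2. Apart from construction, the cause of these shifts was not tested.

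Same-numbered mock and arsenite libraries did not deviate together (Pearson's r over 6521 genes: NES -0.0492, NLS -0.0101, G3BP1 0.00578). Replicates differed by 1.11 to 1.39 times counting noise (chi-square per degree of freedom), so a large part of the deviation was counting noise. The correlations therefore cannot show whether same-numbered libraries shared a culture or batch. With the replicate number as a block common to all lines the counts were 25, 16, 15, 17, 19, 7, 7 and 18, and with a block within each line the first 4 were 25, 16, 14 and 17.

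The average arsenite effect was followed across alternatives for 26 rows, the 25 called ones and ZNF394, and not for the other uncalled rows. Of these 26 ZNF394 changed sign, from -0.001 to 0.003 with DESeq2 size factors, 0.002 with the DESeq2 test and -0.027 to 0.034 over the left-out libraries, with values above 0 without NLS arsenite replicate 1 (0.034) or any of the 4 G3BP1 libraries (0.004 to 0.022), and was called in no setting, and the 25 called rows did not change sign. No named line difference changed sign. Under at least 1 alternative the call was lost for 6 of 6 rows for NLS against NES, 7 of 7 for G3BP1 against NES and 13 of 18 for G3BP1 against NLS.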

Other observations

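Other families of DNA-binding zinc finger genes gave few rows, and of all tested rows 19.4% were higher and 18.6% lower after arsenite. Of 41 ZBTB rows, whose proteins carry a BTB domain, 15 could be tested, and 8 were higher and 0 lower after arsenite by edgeR, with a median log2 fold change of 0.35 against -0.01 over all rows tested. Of 9 ZSCAN rows tested 1 was higher and 2 lower, and of 3 ZKSCAN rows 2 were higher and 0 lower. Of 2 ZFP rows 1 was higher and 1 lower, and of 5 rows with a pseudogene name 1 was higher and 0 lower. Among these 5, ZNF602P, which was the one higher, ZNF833P and ZNF542P are also ZNF-numbered rows, with P as the last letter. They are therefore counted again in the next sentence. Among the 89 ZNF-numbered rows below 600 counts that could be tested, 10 were higher and 13 lower (median -0.04), both shares below those of all tested rows. Tested rows with 600 or more counts were called more often (48.5%, against 38% of all), so these shares are not at like depth.

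Rows named as antisense or divergent transcripts of a ZNF gene formed rows of their own. Of 38 tested, 4 were higher and 6 lower by edgeR, again below the shares of all tested rows and again not at like depth. ZNF295-AS1 rose with arsenite from 16.7 ± 4.35 CPM to 55.3 ± 5.77 CPM (SD, n = 6 for each treatment), by 1.74 on the log2 scale (SE 0.147, edgeR's adjusted p = 6.7e-19). ZNF652-AS1 fell from 12.2 ± 3.85 CPM to 3.69 ± 2.39 CPM, a log2 fold change of -1.70 (SE 0.304, edgeR's adjusted p = 2.1e-06). These names were picked after their values were seen.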
